A study of Mus musculus with 4 samples.

Results

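The mitochondrial ribosome was examined through the Mrpl and Mrps genes in lineage-negative bone marrow. Their names stand for proteins of the large and the small subunit, but Mrps36 was placed in neither here and Mrps30 was counted with the large subunit. Members were all genes with a probe of 1 gene symbol that begins with Mrpl or Mrps followed by a digit, each taken at the probe with the highest mean signal over the 4 arrays. There were 65 such genes, measured by 67 probes, among 13840 genes with a probe of 1 symbol. The marrow came from female mice, Mtg16-null or wild type, aged 8 to 12 weeks and given no treatment that the labels record. Null mice (Mtg16 is the gene Cbfa2t3, a corepressor of transcription in blood progenitors) had been backcrossed to generation N4 into C57BL/6, and wild-type mice were C57BL/6. Each array held RNA of 4 pooled mice after magnetic removal of lineage-positive cells. In all, 2 null and 2 wild-type arrays were made, and each of the 2 array lots held 1 null and 1 wild-type array. Nothing says that the 2 arrays of a genotype came from separate pools, so p-values cover only the scatter among these 4 samples, and that scatter may be technical. The study concerns stem cell mobilization and progenitor proliferation, and the comparison asks which transcripts of this ribosome differ without Mtg16.

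Mitochondria make a few core subunits of the respiratory chain on their own ribosomes, whose RNAs come from mitochondrial DNA and whose proteins are all encoded in the nucleus and imported. Many of these proteins have counterparts in bacterial ribosomes, and others occur in mitochondria alone. Blood progenitors need this translation for respiration, and red cell precursors carry many mitochondria until they mature.

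The Mrp genes lay slightly lower in null than in wild-type marrow as a group, and no gene among them passed the test on its own. Of the 63 genes tested, 52 had a log2 difference (null minus wild type) below 0 and 11 above it. The median difference was -0.18, or -11.5% on the linear scale, while the median over all 8445 genes tested was -0.02. It was -0.18 in lot 1 and again -0.18 in lot 2. The lowest readings on well-lit probes were those of Mrpl52, a large subunit protein of mitochondria alone, and Mrps36, and the clearest higher reading was that of Mrpl33, a large subunit protein with a bacterial counterpart.

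Upstream sequence is shown for 5 members, since promoters of nuclear genes for mitochondrial proteins are known for sites of the factors NRF1 and GABP. They were picked by their differences and not by motif: ranked by the smaller of the 2 within-lot differences among members of like sign in both lots, they are the 4 lowest and the highest that have a RefSeq entry. The sequences are RefSeq's, build GRCm38.p6, from 100 bases before to 20 bases after the annotated start, 5′ to 3′ along the gene's strand. Capitals mark the letters CCGGAAG of the ETS family, to which GABP belongs, on either strand (CTTCCGG as printed where it lies on the other one), and the NRF1 letters GCGCANGCG.

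Mrpl52, chr14:54426809-54426928, plus strand: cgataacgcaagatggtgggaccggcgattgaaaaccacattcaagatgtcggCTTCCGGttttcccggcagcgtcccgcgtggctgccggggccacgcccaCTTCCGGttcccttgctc
Mrps36, chr13:100744640-100744759, minus strand: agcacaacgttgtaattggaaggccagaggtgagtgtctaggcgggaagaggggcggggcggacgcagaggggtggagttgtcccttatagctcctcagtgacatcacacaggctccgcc
Mrps24, chr11:5707682-5707801, minus strand: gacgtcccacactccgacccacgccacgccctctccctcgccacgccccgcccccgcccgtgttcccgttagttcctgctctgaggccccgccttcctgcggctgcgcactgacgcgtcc
Mrpl22, chr11:58171564-58171683, plus strand: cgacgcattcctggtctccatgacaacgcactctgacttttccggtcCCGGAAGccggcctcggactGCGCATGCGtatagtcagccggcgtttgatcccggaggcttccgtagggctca
Mrpl33, chr5:31613851-31613970, plus strand: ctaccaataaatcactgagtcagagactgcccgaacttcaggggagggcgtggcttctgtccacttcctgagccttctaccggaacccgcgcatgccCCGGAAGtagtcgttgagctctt

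The ETS letters lay in the stretches of Mrpl52, Mrpl22 and Mrpl33, so in lower genes and in the higher one, and the NRF1 letters in that of Mrpl22. The stretches of Mrps36 and Mrps24 held neither. Among the 12 lowest members by the same ranking, 11 had an entry, of which 4 held the ETS letters, 2 the NRF1 letters, 2 the YY1 letters and 4 no motif searched. Promoter entries of 300 bases, 250 before and 50 after the start, were found for 57 members, with 63 entries in all. The ETS letters occurred in 20 of the 63 (31.7%) and in 8.86% of all 32851 promoter entries. The NRF1 letters occurred in 13 (20.6%, against 6.25% of all entries), the YY1 letters AAGATGGCG in 6 (9.52%, against 1.40%) and the E-box CACGTG in 5 (7.94%, against 7.15%), where Mrpl2 alone gave 3 of the 5. Both strands were searched, and matches of different motifs overlapped in 0 of the 63. GC content moved with these shares, at a median of 58.7% in the members' entries and 52.7% in all, and its part was not tested. Members with the ETS letters had a median log2 difference of -0.18 (n = 19 tested) and those without it -0.19 (n = 36), and the medians were -0.20 with the NRF1 letters (n = 12) and -0.17 without (n = 43).

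As checks on the samples, the Cbfa2t3 probe read 95520 and 118572 signal units on the null arrays of lots 1 and 2, against 80854 and 100256 on the wild-type arrays (log2 difference 0.24, SE 0.23, limma adjusted p = 0.702), and its place relative to the deletion is not given in the sources used here, so it checks no label. Probes of 3 Y-linked genes, which female mice lack, read 94.5 to 310.2 signal units and show where background lies. Of the marker genes with a probe, 7 of 7 for stem and progenitor cells read above that range on all 4 arrays, 10 of 10 for early granulocytes, 11 of 12 for erythroid cells, 11 of 12 for late neutrophils, 4 of 5 for monocytes and macrophages, 2 of 4 for mature B cells and 2 of 6 for T and natural killer cells. Arrays have no read depth, and it is the small number of them that limits the precision. The deposited values share 1 distribution, so every array has the same median of 470.4 signal units.

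Most Mrp probes read far above background, with 58 of 65 genes over 5000 signal units on average and a median percentile of 94.0. A probe's signal is set beside that of the same probe only, since probes differ in their response. The filter that kept the brighter 50% of probes left 63 members and dropped Mrpl21 and Mrpl45, a protein that ties the mammalian ribosome to the inner membrane. Mrpl21 read 253 and 157 signal units on the null arrays of lots 1 and 2, against 287 and 146 on the wild-type arrays, none above the highest Y-linked reading. Mrpl45 read 200 and 396 signal units on the null arrays of lots 1 and 2, against 541 and 285 on the wild-type arrays, with opposite signs in the 2 lots (-1.43 in lot 1 and 0.48 in lot 2). Neither gene gave a usable difference.

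The shares of members called lay near or below the shares among all genes. With limma, 0 of 63 members passed an adjusted p of 0.05 (smallest adjusted p = 0.220), where 0.118% of all genes did, every one of them lower in the null arrays. At an unadjusted p under 0.05, 2 members were lower, Mrpl52 and Mrps36, which is 3.17% of the members against 6.83% of all genes, and 0 were higher, against 9.65% of all genes. With the array lot as a block, 6 members were lower at an unadjusted p under 0.05 (Mrpl15, Mrpl22, Mrpl52, Mrps24, Mrps36 and Mrps6), or 9.52% against 11% of all genes, and 0 passed after adjustment (smallest adjusted p = 0.121). Mrpl15, which gave that smallest value, cleared the filter narrowly, at percentile 50.4 of the mean level. Its wild-type readings (400 and 786 units in lots 1 and 2) lifted it past, so its count is no support. They exceeded the null readings of 241 and 428 within each lot, but the groups overlapped. With a variance trend 5 were lower at that unadjusted threshold, or 7.94% against 7.44% of all genes, and 0 passed (smallest adjusted p = 0.0921). On the brightest 25% of probes 4 of 59 were (6.78%, against 9.18%), and with no filter 1 of 65 was (1.54%, against 4.71%).

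Direction differed from the share among all genes more than size did. In both lots, 44 of 63 members (69.8%) were lower in null marrow, against 36.8% of all genes, and 6 (9.52%) were higher, against 33.6%. Among genes of the brightest 25% of probes, which hold 59 of the members, 41 of the 59 members were lower in both lots. Of all 4967 genes in that set, 2035 (41%) were. The remaining 13 members had opposite signs in the lots, with differences between -0.11 and 0.09. The null values lay wholly below the wild-type values for 23 members (36.5%, against 23.1% of all genes) and wholly above for Mrpl33 and Mrpl48 (22.6% of all genes). A difference of at least 0.32 on the log2 scale in both lots was less common, with 7 members lower (11.1%, against 12.8% of all genes) and 0 higher (against 15.3%). The 7 include Mrpl15, which cleared the filter only through its wild-type readings. The members' differences were also narrow, with quartiles of -0.30 and -0.04 where all genes had -0.27 and 0.29. Most members have bright probes, and these quartiles and the shares by overlap and size were not set beside genes of like signal. Members were chosen with earlier results of these data known, so no test over the list was made.

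**Figure D1:**
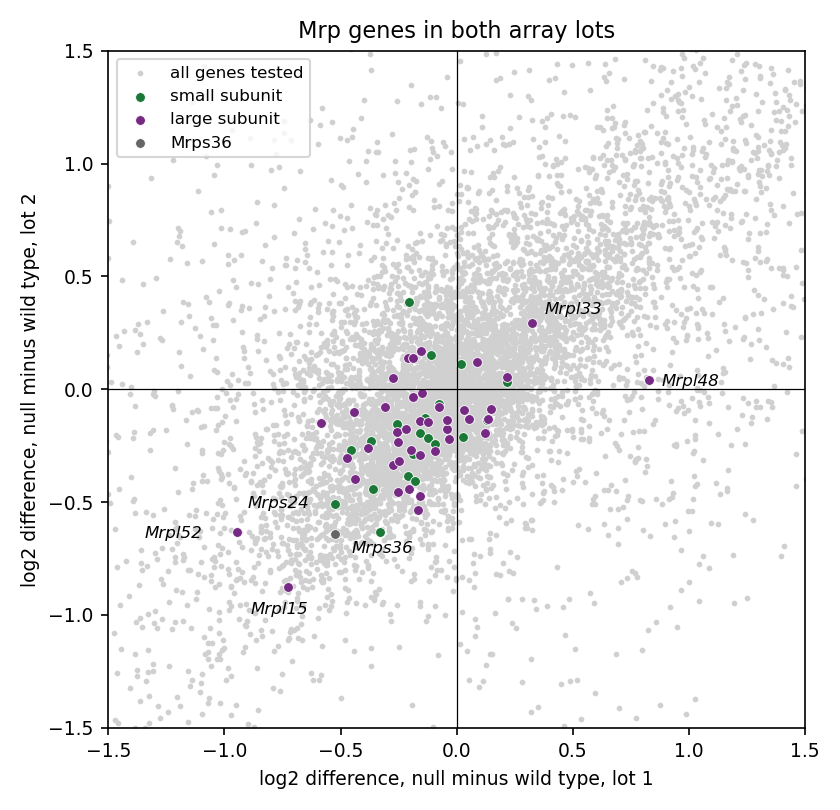
Log2 difference of null minus wild type in lot 1 (horizontal axis) and lot 2 (vertical axis), 1 point per gene, for small subunit members (green), large subunit members (purple), Mrps36 (dark grey) and all genes tested (light grey, of which 649 lie outside the plotted limits of 1.5). Of 63 members, 44 lie below 0 on both axes and 6 above 0 on both.

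The lots differed from each other about as much as the genotypes did. Relative to each member's mean over the 4 arrays, the median log2 level was 0.02 and -0.17 on the null arrays of lots 1 and 2, against 0.18 and 0.03 on the wild-type arrays. The null array of lot 1 thus lay close to the wild-type array of lot 2, and the difference showed within lots. Leaving out an array therefore moved the median, to -0.23 or -0.07 when null array 1 or null array 2 was dropped, and -0.11 or -0.29 when wild-type array 1 or wild-type array 2 was dropped. The number of members below 0 was 55, 38, 39 and 53 in the same order. Each lot holds 1 array per genotype, so lot values carry no error of their own.

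Small subunit genes numbered 21, all tested, and 17 lay below 0 with a median difference of -0.18 (-0.18 in lot 1 and -0.21 in lot 2). That median was -0.10 without null array 2 and -0.27 without wild-type array 2. Those with a bacterial counterpart had a median of -0.20 (n = 13, of which 10 were lower in both lots), and those of mitochondria alone -0.10 (n = 8, 5 lower in both lots). Mrps24, the counterpart of bacterial protein S3 at the entry of the mRNA channel, read 68629 and 51124 signal units on the null arrays of lots 1 and 2, against 98554 and 72612 on the wild-type arrays (log2 difference -0.51, SE 0.27, limma adjusted p = 0.461). Its lots agreed closely (-0.52 in lot 1 and -0.51 in lot 2), and the null values lay below the wild-type values. The spread between lots was wide, and the difference became -0.73 or -0.30 when null array 1 or 2 was dropped, and -0.29 or -0.73 when wild-type array 1 or 2 was.

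Mrps6, of the platform of the subunit, read 19360 and 18817 signal units on the null arrays of lots 1 and 2, against 24822 and 25523 on the wild-type arrays (log2 difference -0.40, SE 0.17, limma adjusted p = 0.361). The groups did not overlap, and with an array left out the difference stayed between -0.42 and -0.38. Mrps25, a protein of mitochondria alone, read 43429 and 33015 signal units on the null arrays of lots 1 and 2, against 54607 and 51134 on the wild-type arrays (log2 difference -0.48, SE 0.22, limma adjusted p = 0.4). Here too the groups did not overlap, though the lots differed in size (-0.33 in lot 1 and -0.63 in lot 2), and the value became -0.28 without null array 2.

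Mrps11, also of the platform, had a difference of -0.36 (limma adjusted p = 0.47) with null values of 10464 and 9809 signal units, against 14364 and 11831 in wild type, and it was -0.22 without wild-type array 1. The small subunit genes that were higher in both lots were Mrps33 and Mrps9, whose bacterial counterpart reaches the tRNA in the peptidyl site. Their differences of 0.13 and 0.07 were smaller than their SE of 0.20 and 0.21. Mrps33 had a second, dimmer probe with a difference of 0.20, which was 0.52 in lot 1 and -0.11 in lot 2. The decoding protein gene Mrps12, chosen after its values were seen, read 54238 and 40730 signal units on the null arrays of lots 1 and 2, against 57821 and 48229 on the wild-type arrays, and these groups overlapped.

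**Figure D2:**
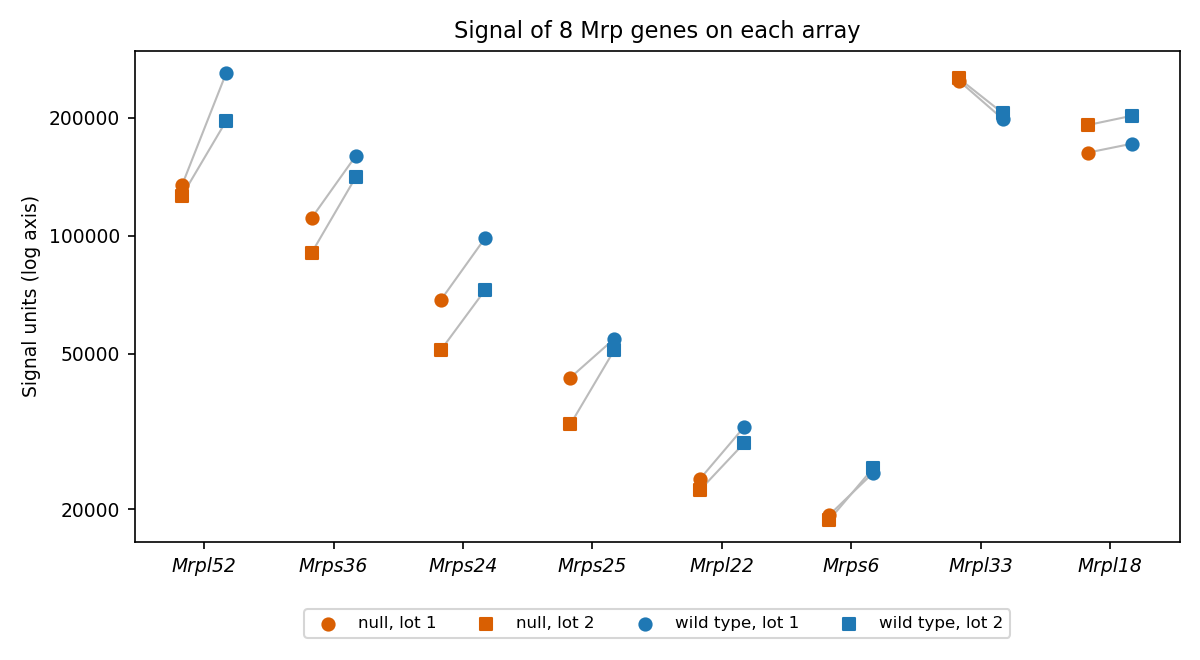
Signal units on a log axis for 8 Mrp genes, with null arrays (orange) left of wild-type arrays (blue), lot 1 as circles and lot 2 as squares, and a line joining the arrays of a lot. From Mrpl52 to Mrps6 both lines climb towards wild type, for Mrpl33 both descend, and for Mrpl18 they are nearly flat. Levels compare within a gene only.

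Large subunit genes numbered 43, of which 41 were tested and 34 of these lay below 0, with a median of -0.15 (-0.17 in lot 1 and -0.15 in lot 2). Genes with a bacterial counterpart had a median of -0.15 (n = 25, 18 lower in both lots) and those of mitochondria alone -0.16 (n = 16, 10 lower in both lots). The large subunit median was -0.04 without null array 2 and also -0.04 without wild-type array 1, and -0.23 and -0.29 without the other null and the other wild-type array. Mrpl52 read 134826 and 126621 signal units on the null arrays of lots 1 and 2, against 260087 and 196290 on the wild-type arrays (log2 difference -0.79, SE 0.22, limma adjusted p = 0.22). It averaged 130724 ± 5801 signal units in null marrow and 228188 ± 45111 in wild type (SD, n = 2), 1.73-fold lower in null, with -0.95 in lot 1 and -0.63 in lot 2. The null arrays lay close together, while the wild-type arrays stood well apart.

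Mrpl22, whose bacterial counterpart lines the exit tunnel for the growing chain, read 23911 and 22404 signal units on the null arrays of lots 1 and 2, against 32420 and 29493 on the wild-type arrays (log2 difference -0.42, SE 0.17, limma adjusted p = 0.363). The groups did not overlap and both lots gave a like difference (-0.44 in lot 1 and -0.40 in lot 2). Mrpl28 read 29682 and 23326 signal units on the null arrays of lots 1 and 2, against 41160 and 28815 on the wild-type arrays (log2 difference -0.39, SE 0.27, limma adjusted p = 0.588), and the higher null array exceeded the lower wild-type array. Its difference became -0.56 or -0.21 when null array 1 or 2 was dropped, and -0.13 or -0.65 when wild-type array 1 or 2 was.

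Mrpl14, at the interface with the small subunit, had a difference of -0.30 (limma adjusted p = 0.519), Mrpl34 of -0.32 (adjusted p = 0.49) and Mrpl53 of -0.36 (adjusted p = 0.429). In each of these 3 genes the null values lay below the wild-type values. Mrpl34 and Mrps31 are the 2 members on chromosome 8, which also carries Cbfa2t3. Genes of the lists described below lie on it too, among them Gadd45gip1 and the assembly list gene Ddx28 (log2 difference -0.25). Whether donor DNA remains near these genes or elsewhere after the backcross was not tested. For any gene, such DNA and the loss of Mtg16 cannot be told apart here. The Mrpl15 probe read 241 and 428 signal units on the null arrays of lots 1 and 2, against 400 and 786 on the wild-type arrays (log2 difference -0.80, SE 0.48, limma adjusted p = 0.51). Its lots agreed in sign (-0.73 in lot 1 and -0.88 in lot 2), but 1 null reading lay below the highest Y-linked reading and the groups overlapped. With an array left out it ran from -1.29 (wild-type array 1) to -0.31 (wild-type array 2), and it was -0.39 without null array 1 and -1.22 without null array 2, so its size is not resolved from background.

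Against this direction, Mrpl33 read 248749 and 252128 signal units on the null arrays of lots 1 and 2, against 198558 and 205475 on the wild-type arrays (log2 difference 0.31, SE 0.17, limma adjusted p = 0.47). It was 1.24-fold higher in null marrow, 0.33 in lot 1 and 0.30 in lot 2, and replicates of a genotype differed little (250438 ± 2390 in null and 202016 ± 4891 in wild type, SD, n = 2). Leaving out an array kept its difference between 0.29 and 0.33, yet it did not pass the test. Mrpl48 had a higher mean in null (0.44, limma adjusted p = 0.504), but the lots disagreed in size (0.83 in lot 1 and 0.04 in lot 2). Its signals were 1915 and 1449 units on the null arrays, against 1077 and 1407 on the wild-type arrays, and its difference was 0.24 without null array 1 and 0.24 without wild-type array 1. Mrpl24 (0.10, between 0.00 and 0.21 with an array left out) and Mrpl19 (0.14) had overlapping groups. Mrpl18, among the brightest probes, had a difference of -0.08 in the mean and -0.08 in each lot, with overlapping groups. The signs of Mrpl18, Mrpl19, Mrps33 and Mrps9 each turned when 1 array or another was left out. For Mrpl49, the other gene with 2 probes, the differences were -0.27 and -0.18, lower in both lots by either probe.

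Mrps36 carries the family's name but is now known in yeast and human as a subunit of the 2-oxoglutarate dehydrogenase complex of the citric acid cycle, and it was counted in neither subunit here. Its probe read 110909 and 90390 signal units on the null arrays of lots 1 and 2, against 159623 and 140863 on the wild-type arrays (log2 difference -0.58, SE 0.20, limma adjusted p = 0.291). The groups did not overlap, and the difference was -0.53 in lot 1 and -0.64 in lot 2. It averaged 100649 ± 14509 in null marrow and 150243 ± 13265 in wild type (SD, n = 2), a difference of -33.2% in null.

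**Figure D3:**
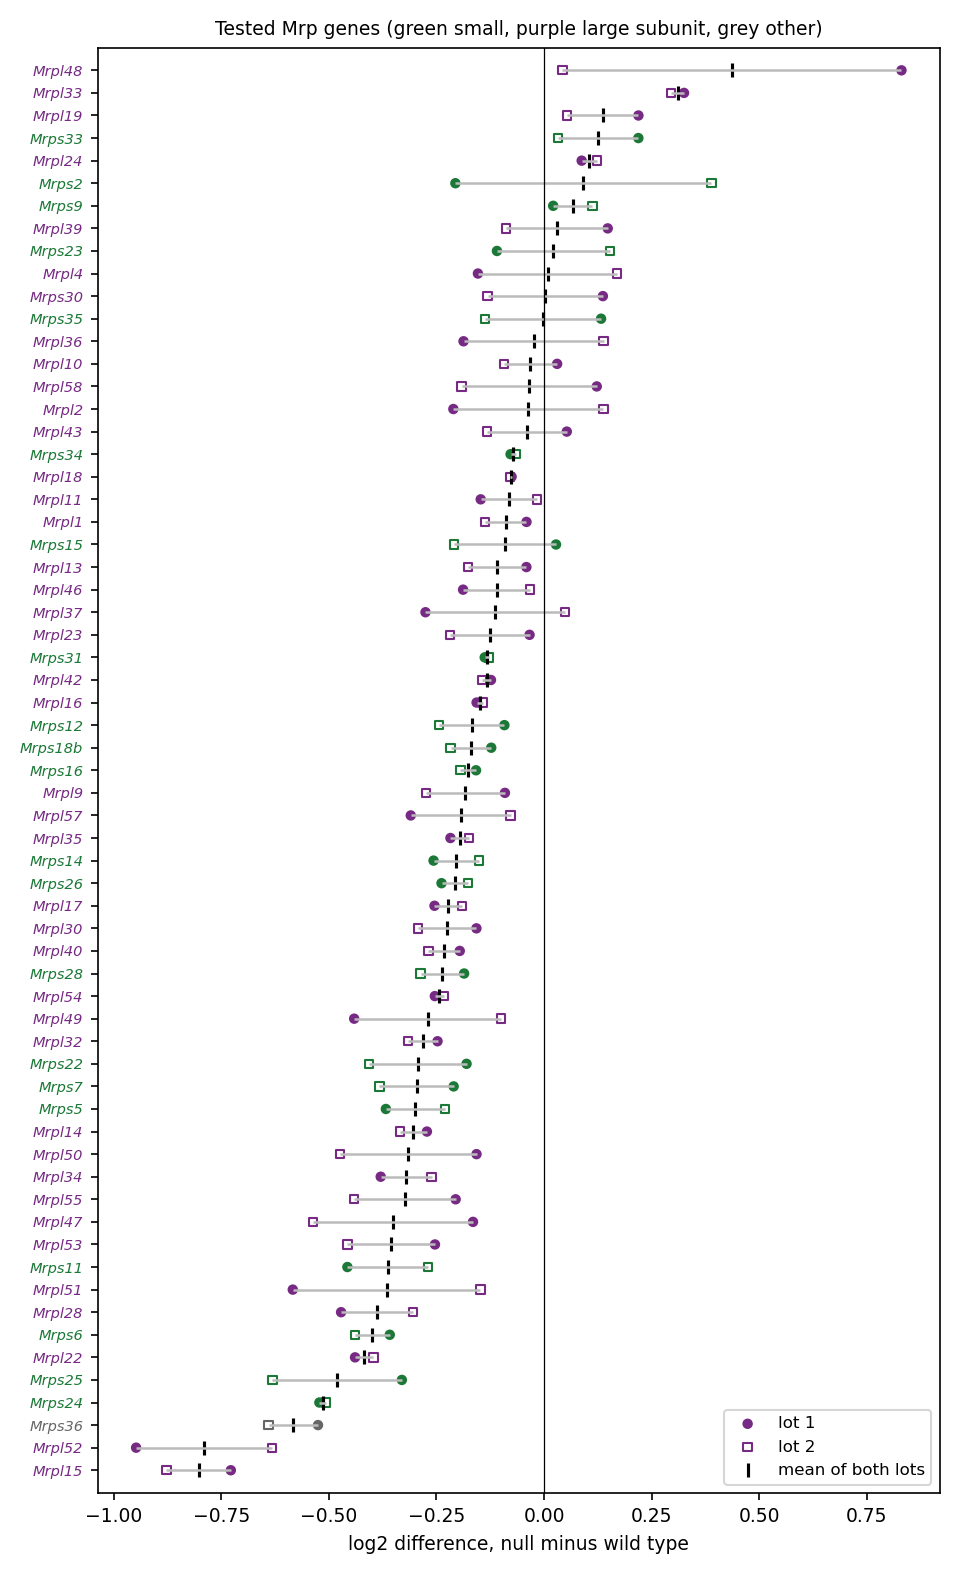
Log2 difference of null minus wild type for the 63 tested Mrp genes, ordered from highest (top) to lowest, with lot 1 as filled circles, lot 2 as open squares and the mean as a black tick. Small subunit genes are green, large subunit genes purple and Mrps36 grey; 52 of the means lie left of 0.

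Genes that serve the same ribosome also had mostly negative differences, and with limma 0 of them passed over all genes. These lists were chosen with earlier results known. To set beside the counts of these and the following lists, 36.8% of all genes were lower in both lots and 33.6% higher. All 4 tested genes of mitoribosome proteins with other names were lower in both lots (median -0.35, and -0.22 without null array 1). They include Gadd45gip1 (29442 and 28753 signal units on the null arrays of lots 1 and 2, against 40435 and 45439 on the wild-type arrays, log2 difference -0.56, SE 0.18, limma adjusted p = 0.257), a large subunit protein at the tunnel exit, and Dap3 (-0.38, adjusted p = 0.449), a GTP-binding protein of the small subunit. Of 17 assembly and rRNA modification genes, 11 were lower in both lots and 3 higher (median -0.22, with -0.34 without null array 1 and -0.14 without wild-type array 1). Tfb1m, which methylates the small subunit rRNA, read 8187 and 8685 signal units on the null arrays of lots 1 and 2, against 13345 and 13316 on the wild-type arrays (log2 difference -0.66, SE 0.17, limma adjusted p = 0.193), and Mrm2, a methyltransferase of the large subunit rRNA, had a difference of -0.48 (adjusted p = 0.307). On the other side, Rbfa, an assembly factor, had 0.13 (0.22 or 0.03 when wild-type array 1 or 2 was dropped), and Mterf4 had 1.02, a value set by null array 1 (3283 and 337 signal units on the null arrays of lots 1 and 2, against 862 and 312 on the wild-type arrays) that became -0.62 without it.

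Among translation factors, the widest difference belonged to Mtrf1l, the release factor that ends translation at stop codons. It read 366 and 438 signal units on the null arrays of lots 1 and 2, against 5362 and 3119 on the wild-type arrays (log2 difference -3.35, SE 0.33, limma adjusted p = 0.0744, and 0.0189 with a variance trend). Both null values lay below the array median of 470.4, though above the Y-linked range. The probe thus passed the filter through its wild-type values, and its p-values are to be read with that selection in mind. The fit with the lot as a block gave an adjusted p of 0.113. Of the 8 factors tested, 5 were lower in both lots and 1 higher (median -0.22, and -0.13 without wild-type array 1), among them Mrrf, the recycling factor (-0.35, adjusted p = 0.467), while Mtrf1, a relative of Mtrf1l, had 0.34 (adjusted p = 0.682), which ran from 0.04 without wild-type array 2 to 0.64 without wild-type array 1, with 0.14 without null array 1 and 0.54 without null array 2.

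Mitochondrial tRNA synthetases, which charge the tRNAs read by this ribosome, were lower in both lots for 12 of 14 (85.7%, against 36.8% of all genes). Their median was -0.35, and 0 were higher in both lots. The median was -0.23 without null array 2 and -0.18 without wild-type array 1. Rars2 (-0.50, adjusted p = 0.377) and Sars2 (-0.37, adjusted p = 0.496) had groups that did not overlap, though Sars2 was -0.24 without null array 2 and -0.24 without wild-type array 1. All 9 tested genes of mitochondrial DNA maintenance and transcription were lower in both lots (median -0.15), with Mterf1a at -0.35 and the helicase gene Twnk at -0.37. The value for Twnk was -0.76 and 0.03 without null arrays 1 and 2, and -0.04 and -0.70 without wild-type arrays 1 and 2. Among 7 tested nuclear regulators the median was -0.08 and 4 were lower in both lots. That median was -0.18 without null array 1, and -0.01 or -0.25 when wild-type array 1 or 2 was dropped. They include Ppargc1b, a coactivator of mitochondrial genes (-0.38, and -0.24 without wild-type array 2), and Gabpb2, a GABP subunit gene. Gabpb2 had -0.61, with -0.98 in lot 1 and -0.24 in lot 2, and was -0.18 or -1.04 when wild-type array 1 or 2 was dropped. Myc was the 1 higher in both lots (0.48, adjusted p = 0.378, and 0.31 without wild-type array 2).

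The respiratory chain and the cytosolic ribosome are the nearest gene families, and no test was made between the families. Oxidative phosphorylation subunits had a median of -0.14 (57 tested, 37 or 64.9% lower in both lots, against 36.8% of all genes). All null values lay below wild type for 17 of them (29.8%, against 23.1% of all genes). The median of these subunits was -0.23 and -0.08 without null arrays 1 and 2, and -0.08 and -0.26 without wild-type arrays 1 and 2. Cytosolic ribosomal proteins had a median of 0.01 (58 tested, 10 or 17.2% lower in both lots and 12 higher), and that median changed sign with the setting, at -0.01 in lot 1 and 0.04 in lot 2, -0.03 without null array 1 and -0.07 without wild-type array 2.

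**Figure D4:**
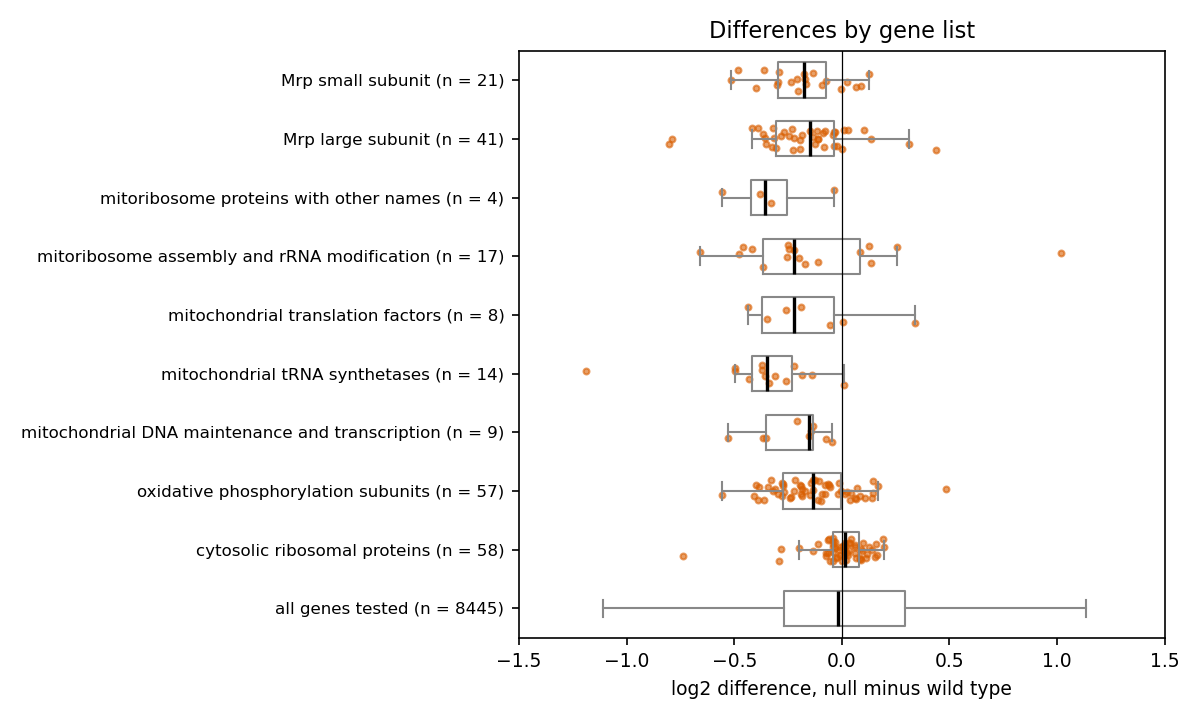
Log2 difference of null minus wild type by gene list, with points for genes, boxes for quartiles, a black line for the median and whiskers to the farthest gene within 1.5 box lengths. Medians of the Mrp genes and the 7 other lists run from -0.35 to 0.01. Mtrf1l, at -3.35 among translation factors, lies outside the plotted range, and all genes tested are drawn as a box alone.

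Markers of several blood cell types moved with genotype in the same arrays, and in pooled bulk RNA fewer cells of a type and less RNA per cell cannot be told apart. Signals were also summed over the probes of each list, and since probes differ in their response, the brightest probes weigh most in a sum. Erythroid markers were lower in both lots for 11 of 11 tested (median -0.92), with a summed signal of 1343030 to 1526740 units in null and 2167020 to 3040070 in wild type. Late neutrophil markers were lower in both lots for 11 of 12 (median -3.53), summing to 148795 to 158748 in null and 1370130 to 1485980 in wild type, and 7 passed limma at an adjusted p under 0.05 (Ltf, Ngp, Camp, Retnlg, Cd177, S100a9 and Chil3; 0 of them with the lot as a block). Early granulocyte markers were higher in both lots for 9 of 10 (median 1.74), summing to 3762960 to 4395100 in null and 1883830 to 1897880 in wild type. S phase genes were lower in both lots for 13 of 15 (median -0.34), with sums of 1162490 to 1207850 in null and 1484910 to 1525080 in wild type. Stem and progenitor markers were higher in both lots for 5 of 7 (median 0.51), monocyte and macrophage markers for 3 of 4 (1.12), mature B cell markers for 2 of 2 (0.57) and T and natural killer cell markers for 2 of 3 (0.86), where the last 2 medians were below 0 with no filter on dim probes (-0.10 and -0.02). Mpo stood on both the stem and progenitor list and the early granulocyte list, so these lists are not separate. Of the 7 stem and progenitor markers, 2 had a difference below 0. The 2 B cell genes tested were Cd79a and Cd79b. Ms4a1, a B cell surface protein gene that the filter dropped and that was singled out after its values were seen, read 68 and 143 units in null and 1444 and 1767 in wild type, lower in both lots, and the null values lay within or below the Y-linked range. Without wild-type arrays 1 and 2 the filtered medians were 0.97 and 0.17 for B cell and 0.20 and 1.46 for T and natural killer markers, and that of stem and progenitor markers was 0.81 without null array 2 and 0.85 without wild-type array 1. Their sums in null and in wild type were 1185220 to 1933240 and 1099720 to 1165040 for stem and progenitor markers, 215463 to 241705 and 71895 to 100234 for monocyte markers, 20827 to 24887 and 12728 to 18952 for B cell markers, and 2939 to 3341 and 1805 to 3066 for T and natural killer markers. All sums cover every list gene with a probe, tested or not, while the counts and filtered medians cover tested genes only. The B cell sums thus hold 4 genes, Ms4a1 among them, and the T and natural killer sums 6. No marker was listed at 0, since the lowest deposited signal was 28.2 units. The part of these cell types and of S phase genes in the lower Mrp signals was not tested.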

How the data were processed

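Transcripts of lineage-negative marrow were measured with digoxigenin-labelled cRNA on 1-colour Applied Biosystems arrays, per the labels' protocols. For 33012 probes the authors deposited linear intensity values. The values show quantile normalization by the authors (sorted arrays differ by at most 0.286%); for scanner software, background correction and detection calls, the text is silent: not given in the sources used here. Of the probes, 14411 had 1 symbol in the platform annotation, 247 several and 18354 none, and 14402 of the first matched the RefSeq table of GRCm38.p6, used for names, chromosomes and promoters.

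Signals were floored at the 1st percentile (75.8 units) and taken to log2, the brighter 50% of probes were kept, and each gene took its brightest kept probe (8445 genes). Null minus wild type was fitted with limma 3.58.1 in R 4.3.3 (lmFit, eBayes; 2 residual and 2.11 prior degrees of freedom) with genotype as the only term, and p-values were adjusted by Benjamini-Hochberg over all 8445 genes, with a threshold of 0.05. The fit was tested on simulated data with independent noise, no lot effect and planted changes larger than any member's difference. That check therefore does not bear on differences of the members' size. The series text makes the replicate number the array lot, so the numbers pair the samples; deviations of same-lot arrays from their group means correlated at r = 0.50 over the tested genes. Alternatives were the lot as a block, a variance trend, other filters, floors, scalings and probe summaries, each lot alone and each array left out.

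Genes named were the 12 lowest and 12 highest members (6 were higher) by the smaller within-lot difference of like sign, the 3 brightest and 3 dimmest, members or list genes past the test, up to 2 per direction of each pathway list, and Cbfa2t3. Members with probes of opposite sign would have been named too. Mrps12, Mrps31, Mrpl2, Mrpl49, Ddx28 and Ms4a1 were added after values were seen. The members, lists and tests were chosen with earlier results of these data known.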

Additional observations from a re-analysis of the deposited data

How the results depend on the processing

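With scaling, floor, filter, variance trend, lot block and probe summary changed 1 at a time, the members' median difference stayed negative and 0 members passed an adjusted p of 0.05. The count below 0 stayed within 1.5 times of 52. With 59 to 65 members tested, that bound is too wide to show a stable count. With an array left out the median ran from -0.29 to -0.07 and the count below 0 from 38 to 55. The number of members lower at an unadjusted p under 0.05 was 2 (3.17%, against 6.83% of all genes), and became 6 with the lot as a replicate block (9.52%, against 11%), 5 with a variance trend (7.94%, against 7.44%), 4 with the brightest 25% of probes (6.78%, against 9.18%), 1 with no filter on dim probes (1.54%, against 4.71%), and 0 to 1 with an array left out (at most 1.59%, against 3.23% to 6.77%). The block ended all 10 calls over all genes, 7 of them late neutrophil markers, and changed no other call. The cause of these shifts was not tested. Over the named members, 291 of the values under alternatives kept direction and side of the threshold (or, without a test, moved by less than the SD), 6 moved further, and 7 turned sign, all 7 with an array left out. Those were Mrpl19 (-0.17 to 0.44 over the arrays left out), Mrps33 (-0.030 to 0.28), Mrps9 (-0.085 to 0.22) and Mrpl18 (-0.20 to 0.041). In the same way Mterf4 ran from -0.62 to 2.66 and Twnk from -0.76 to 0.026. The cytosolic ribosomal median was -0.0056 in lot 1 and ran from -0.066 to 0.071 with an array left out. Without the filter the medians of mature B cell and of T and natural killer markers were -0.10 and -0.016. Quantile and median scaling could change little, since the deposited arrays share 1 distribution. With 3 arrays, the lone array of a genotype was assumed to vary like the other group.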
